A study of Danio rerio with 2 samples.

Results

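The cerebellin genes cbln1, cbln2a, cbln2b, cbln4 and cbln12 were followed through sorted cells of the adult zebrafish brain. They were chosen by symbol, as 5 of the 25435 features counted in both libraries, with earlier results of these data known. A further 12 features carry a cerebellin symbol and are described last. The series holds 2 single-cell RNA libraries, 1 per genotype, and no comparison between genotypes could therefore be tested. The control library came from gpr85Gal4/+ fish, which carry 1 Gal4 knock-in allele at gpr85, and the knockout library from gpr85GAL4/GAL4 fish, which carry 2. Both groups thus carry the Gal4 insertion, and from both the cells labelled as expressing gpr85 were sorted by eGFP, so the values describe these cells and not the whole brain. Brains were dissociated with papain, dead cells were excluded with 5 nM Sytox Red, and 50000 cells were sorted per condition. The number of fish, and whether several were pooled, were not given in the sources used here.

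Cerebellins are secreted proteins of the C1q family that organise synapses. In mice, Cbln1 is released by cerebellar granule cells from their parallel fibres, where it links presynaptic neurexins to receptors on Purkinje cells, and its loss leaves many of those synapses unformed. Mouse Cbln2 and Cbln4 also bind neurexins, and mouse Cbln4 binds the netrin receptor DCC and its relative neogenin. In zebrafish, cbln12 is widely used as a marker of cerebellar granule cells.

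A barcode was kept as a cell with at least 1000 UMIs (unique molecular identifiers, each counting 1 captured transcript), at least 500 genes and at most 15% mitochondrial UMIs. This left 4091 control and 3231 knockout cells, with medians of 2585 and 2844 UMIs per cell. Levels are UMIs of a gene per 1000000 UMIs (CPM), summed over the cells of a class, with exact 95% Poisson intervals in brackets. These intervals cover counting error only, not the difference between fish. The libraries shared 8 cell barcodes, which is 0.196% of the control and 0.248% of the knockout cells. Transcripts of gpr85 itself stood at 145 CPM in control cells and at 108 CPM in those of the library labelled knockout, and the 3 prime counts do not show whether these transcripts encode the receptor. Free RNA was present in both libraries. From glial markers in granule cells, it accounted for at most 11.9% of control and 8.42% of knockout UMIs. In barcodes under 100 UMIs, cbln1 stood at 216 and 183 CPM, cbln2a at 50.2 and 21.7 CPM, cbln2b at 76.2 and 46.5 CPM, cbln4 at 6.14 and 8.98 CPM, and cbln12 at 137 and 135 CPM.

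Cells were assigned to classes by marker genes, with no cerebellin among the markers. Granule-like cells had at least 4 of 15 granule markers and passed no gate of the small sets or of the GABAergic, habenula or glial classes below. The granule markers include the GABA-A receptor subunit gene gabra6b, the zinc finger gene zic1 and the protocadherin gene fat2. Granule-like cells numbered 2434 in the control and 2453 in the knockout. A further 536 and 211 cells passed the same gate, also carried at least 3 markers of immature neurons, such as sox11a, and were kept apart as immature granule-like. Another 3 small sets rest on few markers and are called by their genes. The gsg1l/lmx1al set, after an AMPA receptor accessory subunit and a LIM homeodomain factor, held 487 and 152 cells. The galn set, after the neuropeptide galanin, held 160 and 49 cells, and the uts1/otofa set, after the neuropeptide urotensin 1 and otoferlin, held 52 and 31 cells.

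The gsg1l/lmx1al and galn sets also carried the granule markers, which summed to 8664 and 8653 CPM in the former, to 7307 and 7537 CPM in the latter and to 8527 and 8481 CPM in granule-like cells. In the uts1/otofa set the summed granule markers were lower, at 4767 and 4580 CPM, fat2 stood at 68.3 and 55.8 CPM, and the vesicular glutamate transporter gene slc17a6b was counted at 2180 and 2206 CPM. Markers of Purkinje cells summed to 932 and 735 CPM in the uts1/otofa set, with 5 and 4 of 10 detected, against 68.8 and 62.6 CPM in granule-like cells, and their part in the levels below was not tested. GABAergic-like cells, with at least 3 markers such as gad1b, numbered 60 and 18, and habenula-like cells, with at least 3 markers such as kiss1 and pou4f1, numbered 25 and 65. Each of the 10 GABAergic markers was detected in the GABAergic-like cells of both libraries, and 9 and 8 of the 9 habenula markers in the files were detected in the habenula-like cells. Only 14 and 17 microglia-like, 27 and 25 radial-glia-like and 7 and 4 oligodendrocyte-like cells were gated. Cells that passed more than 1 gate, the granule gates aside (21 and 11), or no gate at all (268 and 195) stayed unassigned. A cell that passed a granule gate and 1 other gate was placed in the other class. No Purkinje class was gated, and the summed Purkinje markers stood at 158 and 129 CPM over all cells.

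The 5 genes had different places among these classes, and the place of each was the same in both libraries. The gene cbln12 was highest in granule-like and immature granule-like cells, cbln1 in the uts1/otofa and gsg1l/lmx1al sets, and cbln2a in the galn set. The level of cbln2b was high in all 3 small sets, and cbln4 was found mainly in habenula-like and GABAergic-like cells. With 1 library per genotype, the spread between replicates of a class is unknown, and the range over the 2 libraries is the only spread available.

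**Figure D1:**
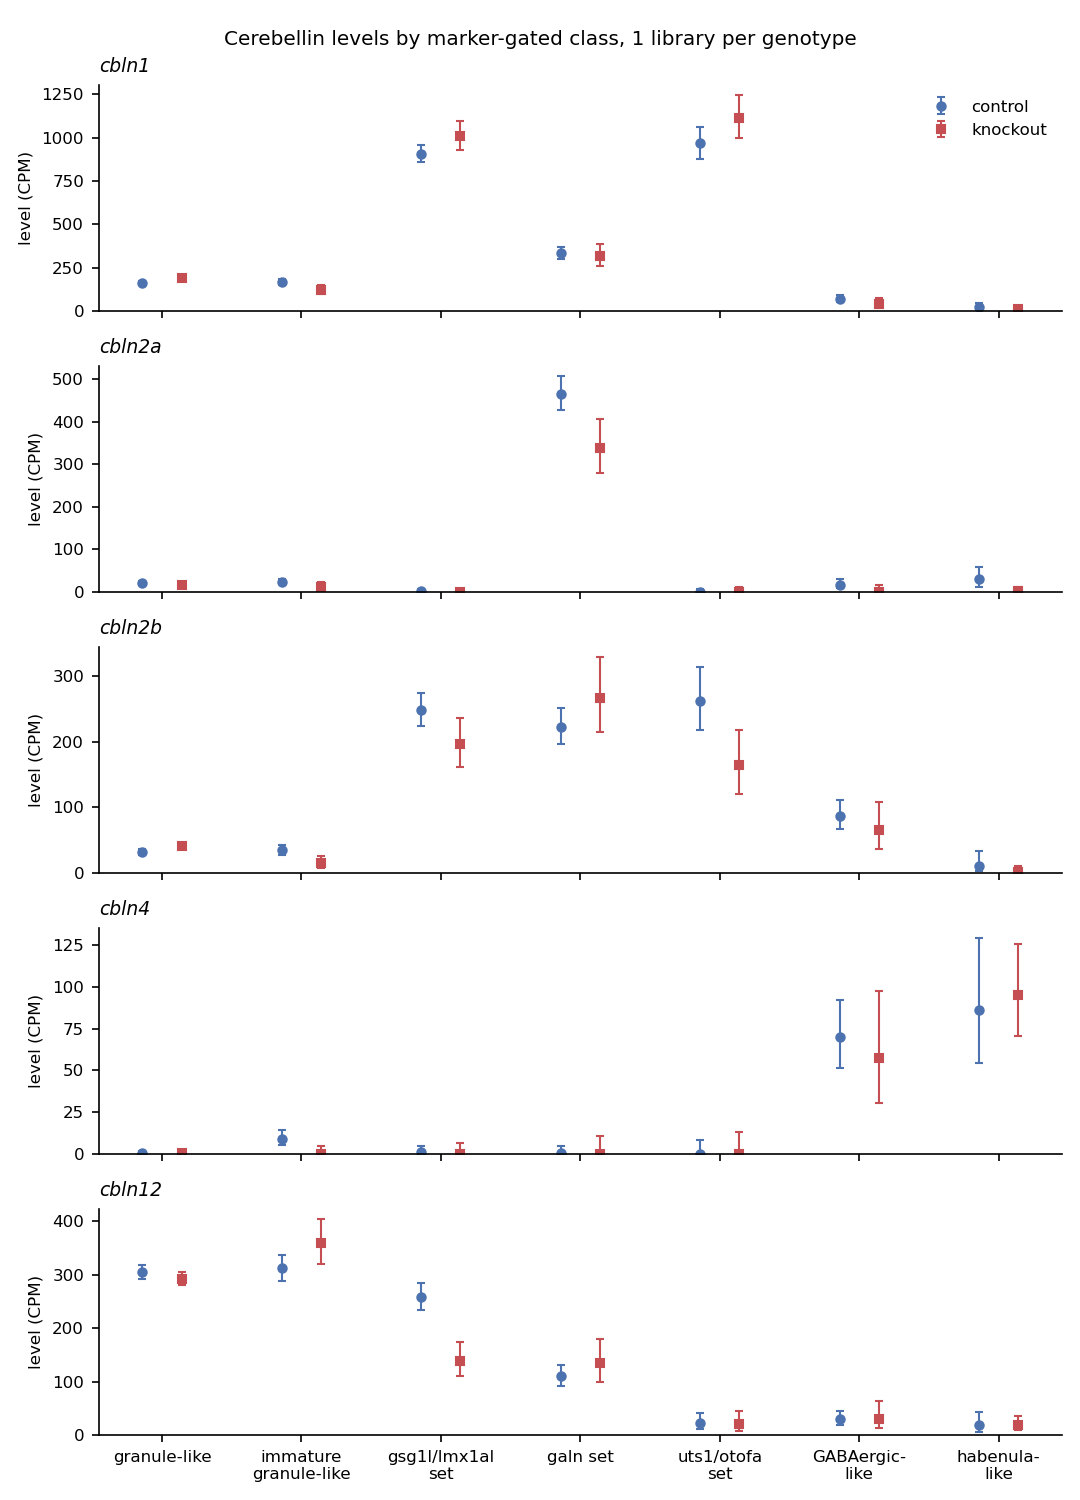
Levels of the 5 cerebellins (vertical axes, CPM of summed UMIs, each panel with its own scale from 0) in 7 marker-gated classes. Circles are the control and squares the knockout library, and bars are exact 95% Poisson intervals. The highest points lie in the uts1/otofa set for cbln1 (968 and 1115 CPM), in the galn set for cbln2a (466 and 339 CPM), in habenula-like cells for cbln4 (85.9 and 95.0 CPM) and in immature granule-like cells for cbln12 (313 and 360 CPM).

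The classic granule-cell cerebellin of mammals, cbln1 (ENSDARG00000057296), reached 968 CPM (879 to 1062) in the control and 1115 CPM (996 to 1244) in the knockout cells of the uts1/otofa set. In the gsg1l/lmx1al set it stood at 907 CPM (860 to 955) and 1010 CPM (929 to 1097). The ranges of these sets over the 2 libraries overlapped, so their order was not separated. Both lay above granule-like cells, where cbln1 was counted at 164 CPM (154 to 174) and 189 CPM (179 to 199). The uts1/otofa level was 5.90-fold the granule-like level in either library, and the gsg1l/lmx1al level was 5.53-fold and 5.34-fold. Between these extremes lay the galn set at 333 and 318 CPM. The lowest neuronal levels of cbln1 were in GABAergic-like cells, at 71.3 and 39.5 CPM, and in habenula-like cells, at 22.4 and 9.69 CPM. Barcodes under 100 UMIs held cbln1 at 216 and 183 CPM, and the part of free RNA in these low levels was not tested.

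Per cell the same split was seen. A cbln1 UMI was found in 92.3% and 93.5% of uts1/otofa cells and in 78.6% and 84.9% of gsg1l/lmx1al cells. It was found in 24.1% and 25.0% of granule-like cells. In habenula-like cells the share was 8.0% and 3.08%, although these cells were deeper, with medians of 10715 and 7687 UMIs against 2420 and 2764 in granule-like cells. With every cell thinned to 1000 UMIs, the shares became 55.8% and 61.3% in the uts1/otofa set, 53.8% and 57.9% in the gsg1l/lmx1al set and 12.4% and 12.4% in granule-like cells. Detecting cells of the uts1/otofa set carried 9.15 and 11 cbln1 UMIs on average, those of the gsg1l/lmx1al set 3.68 and 4.40, and granule-like cells 1.83 and 2.31. Cells of the galn set with a cbln1 UMI were 66.9% and 53.1%, and 23.1% and 20.4% when thinned. So cbln1 was found in most uts1/otofa and gsg1l/lmx1al cells with or without thinning, and in a minority of granule-like cells at a few UMIs each.

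The narrowest distribution among the well counted members was that of cbln2a (ENSDARG00000074601). In the galn set its level was 466 CPM (427 to 506) in the control and 339 CPM (279 to 407) in the knockout, from 543 and 113 UMIs. The galn set exceeded granule-like cells, at 21.4 and 16.0 CPM, by 21.8-fold and 21.1-fold. A cbln2a UMI was found in 83.8% and 71.4% of galn cells, against 3.20% and 2.53% of granule-like cells. In the uts1/otofa set no cbln2a UMI was counted in either library, which allows a share of cells with a UMI of up to 5.77% of the 52 control cells and 9.68% of the 31 knockout cells. The gsg1l/lmx1al set held 4 and 0 cbln2a UMIs, the 0 allowing up to 1.97% of its cells to have a UMI at this depth. Thus cbln2a and cbln1 were both counted in the galn set, while the 2 sets with the highest cbln1 levels had almost no cbln2a. The galn set made up 3.9% of control and 1.5% of knockout cells but held 70.2% and 44.0% of all cbln2a UMIs. Granule-like cells, the most numerous class, held 18.1% and 46.7%, which in the knockout was more than the galn set held.

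Its paralogue cbln2b (ENSDARG00000077151) was spread over all 3 small sets. The galn set stood at 222 and 267 CPM, the gsg1l/lmx1al set at 248 and 196 CPM, and the uts1/otofa set at 262 and 164 CPM. These ranges overlapped, so no order among the 3 sets was separated. All 3 lay above GABAergic-like cells at 86.9 and 65.9 CPM and granule-like cells at 31.9 and 41.5 CPM. Relative to granule-like cells, cbln2b was 6.97-fold and 6.42-fold higher in the galn set, 7.79-fold and 4.72-fold in the gsg1l/lmx1al set and 8.23-fold and 3.95-fold in the uts1/otofa set. The GABAergic-like level rested on few cells. A cbln2b UMI was present in 16.7% of them in either library, with 6.10 and 5.00 UMIs per detecting cell. One unassigned control cell alone held 36 cbln2b UMIs.

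Counts of cbln4 (ENSDARG00000061240) were low, with 117 and 85 UMIs over all control and knockout cells. Habenula-like cells held 23 and 49 of them, at 85.9 CPM (54.5 to 129) and 95.0 CPM (70.3 to 126). GABAergic-like cells held 49 and 13, at 69.8 CPM (51.7 to 92.3) and 57.1 CPM (30.4 to 97.7). Granule-like cells, the most numerous class, had 5 UMIs in each library, or 0.763 and 0.667 CPM. A cbln4 UMI was found in 40.0% and 53.8% of habenula-like cells, in 15.0% and 22.2% of GABAergic-like cells and in 0.205% and 0.0815% of granule-like cells. None was counted in the uts1/otofa set of either library. The habenula-like and GABAergic-like intervals overlapped within each library. Detection was uneven among cells, and the 10 cells with the most cbln4 UMIs held 65.0% of the control and 38.8% of the knockout total. Immature granule-like cells had 19 cbln4 UMIs in the control, 15 of them in 1 cell, and 0 in the knockout, which allows a share of cells with a UMI of up to 1.42%.

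The broadest granule-cell gene of the family was cbln12 (ENSDARG00000068232). Its level was 313 CPM (289 to 337) and 360 CPM (320 to 404) in immature granule-like cells and 305 CPM (292 to 318) and 293 CPM (280 to 305) in granule-like cells. In the gsg1l/lmx1al set it was 259 CPM (234 to 285) in the control and 139 CPM (110 to 173) in the knockout, and in the galn set 111 and 135 CPM. The level of cbln12 was low in the uts1/otofa set at 22.0 and 20.9 CPM, and granule-like cells exceeded it there by 13.8-fold and 14.0-fold. Habenula-like cells at 18.7 and 19.4 CPM and GABAergic-like cells at 29.9 and 30.7 CPM were close to that level. Barcodes under 100 UMIs held cbln12 at 137 and 135 CPM, and the part of free RNA in these low levels was not tested. A cbln12 UMI was found in 50.3% and 53.0% of granule-like cells and in 11.5% and 12.9% of uts1/otofa cells. The latter shares were near those of habenula-like cells, 12% and 9.23%. The family's UMIs for cbln12 were spread widely, and the 10 cells with the most held 2.44% and 2.83% of its total.

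Cells of the small sets and the GABAergic-like and habenula-like classes were deeper than granule-like cells, with class medians between 2939 and 12074 UMIs, and 2 cells in 1 droplet would also be deep. Without the 5% of cells with the most UMIs, 28 and 14 uts1/otofa, 114 and 32 galn and 10 and 35 habenula-like cells were left. On the log2 scale, the uts1/otofa set then exceeded granule-like cells in cbln1 by 3.0 and 2.83, and the galn set exceeded them in cbln2a by 4.86 and 5.11. Both differences were larger than with all cells. For cbln4, habenula-like cells exceeded granule-like cells by 7.63 and 7.85, within the intervals with all cells, 5.39 to 8.57 and 5.83 to 8.84. The part of doublets in these levels was not tested.

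Most cells showed at most 1 member. At least 2 of the 5 genes were detected in 25.4% (24.0 to 26.7, exact binomial 95% interval) of control cells and in 21.0% (19.6 to 22.4) of knockout cells. The galn set had the highest share, at 81.2% and 73.5%. The uts1/otofa set stood at 71.2% and 58.1% and the gsg1l/lmx1al set at 62.8% and 58.6%, so the former was above the latter only in the control. In granule-like cells the share was 17.0% and 19.0%. At least 3 members were found in 60.6% and 49.0% of galn cells, 23.4% and 19.1% of gsg1l/lmx1al cells and 2.9% and 3.0% of granule-like cells. Depth enters these shares, and thinning every cell to 1000 UMIs reduced the share with at least 2 members to 6.55% and 4.89% of all cells. The order among the small sets is at unequal depth, and the thinned shares with at least 2 members gave none in common, at 22.4%, 19.4% and 11.5% in the control gsg1l/lmx1al, galn and uts1/otofa sets and at 17.8%, 18.4% and 22.6% in those of the knockout. In granule-like cells they were 4.11% and 4.2%. When thinned, 28.5% and 31.6% of gsg1l/lmx1al cells, 44.4% and 44.9% of galn cells and 30.8% and 25.8% of uts1/otofa cells had no member, against 63.1% and 64.2% of granule-like cells.

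**Figure D2:**
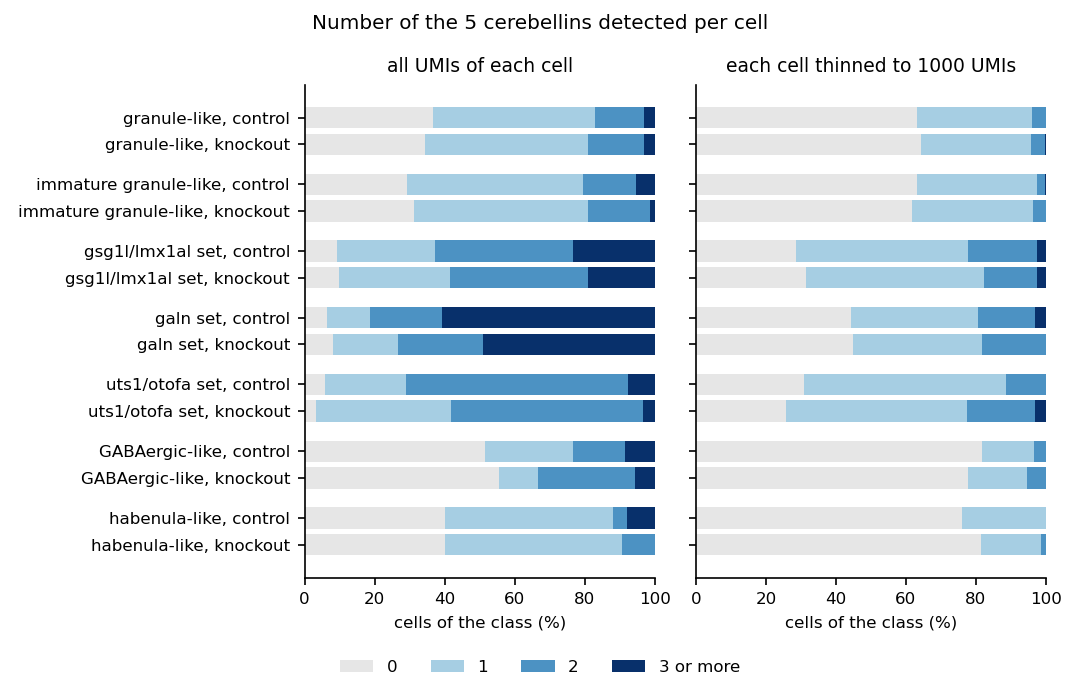
Share of cells (horizontal axes, %) with 0, 1, 2 or at least 3 of the 5 cerebellins detected, by class and library, with all UMIs of each cell (left) and with each cell thinned to 1000 UMIs (right). The galn set has the largest share of cells with at least 3 members before thinning (60.6% and 49.0%), and after thinning this share is at most 3.23% in each class plotted.

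Between members, a cbln1 UMI was more frequent across all cells in cells with cbln2b than in cells without. A cbln1 UMI was present in 73.1% (69.3 to 76.7) of control cells with cbln2b and in 25.0% (23.6 to 26.5) of those without. In the knockout the shares were 64.4% (58.9 to 69.7) and 22.9% (21.4 to 24.4). After thinning they were 41.6% against 15.6% in the control and 38.6% against 13.1% in the knockout. The pairing was narrower inside the gsg1l/lmx1al set. There the thinned shares of cells with cbln1 were 53.5% with and 53.9% without cbln2b in the control, and 64.0% (42.5 to 82.0) and 56.7% (47.6 to 65.4) in the knockout. In granule-like cells the thinned shares with cbln1 stayed apart, at 33.9% (21.8 to 47.8) with cbln2b and 11.9% (10.6 to 13.3) without in the control, and at 30.2% (19.2 to 43.0) and 11.9% (10.7 to 13.3) in the knockout. Granule-like cells holding a marker of the small sets were included here, and their part in this pairing was not tested.

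The granule-cell gene cbln12 showed no such pairing with cbln1. In granule-like cells thinned to 1000 UMIs, cbln1 was found in 10.7% (8.38 to 13.4) of control cells with cbln12 and in 13.0% (11.5 to 14.6) of those without, and in 11.6% and 12.7% of knockout cells. Both genes were nevertheless found in single cells of the gsg1l/lmx1al set, of which 41.9% of control and 34.2% of knockout cells carried a UMI of each. Within the galn set, cbln1 was found in 72.4% (64.0 to 79.8) of control cells with cbln2a and in 38.5% (20.2 to 59.4) of those without, and in 68.6% and 14.3% of knockout cells. Thinned, these became 25.5% against 21.9% in the control and 36.4% against 15.8% in the knockout, with overlapping intervals in both. Over all cells, those with cbln4 less often had cbln12, which was found in 19.5% and 5.66% of them against 48.5% and 49.6% of the other cells. Class makeup enters this comparison, and its part was not tested. A cbln12 UMI was found in 12% and 9.23% of habenula-like and 18.3% and 16.7% of GABAergic-like cells, against 50.3% and 53.0% of granule-like cells.

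Granule-like cells were not uniform for cbln1. Within them, 4 subsets were defined by at least 2 of 3 genes each, taken from clusters of earlier work on these same cells and so not independent of them. In the phldb1a subset of 233 and 215 cells, cbln1 stood at 266 CPM (232 to 304) and 308 CPM (270 to 351). In the pax2a subset of 58 and 42 cells, named for a midbrain and hindbrain transcription factor, it was 29.9 CPM (9.72 to 69.8) and 61.0 CPM (27.9 to 116). The phldb1a subset was thus above the pax2a subset in both libraries, with intervals that did not overlap. In the SYT2 subset of 75 and 107 cells the libraries were apart, at 28.5 CPM (11.5 to 58.8) and 184 CPM (144 to 232), and 6.67% and 12.15% of its cells had a cbln1 UMI. The nr2f1a subset of only 21 and 84 cells stood at 144 CPM (71.9 to 258) and 403 CPM (347 to 464). Meanwhile cbln12 lay between 245 and 354 CPM in all 4 subsets of both libraries, and no cbln4 UMI was counted in any of them.

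**Figure D3:**
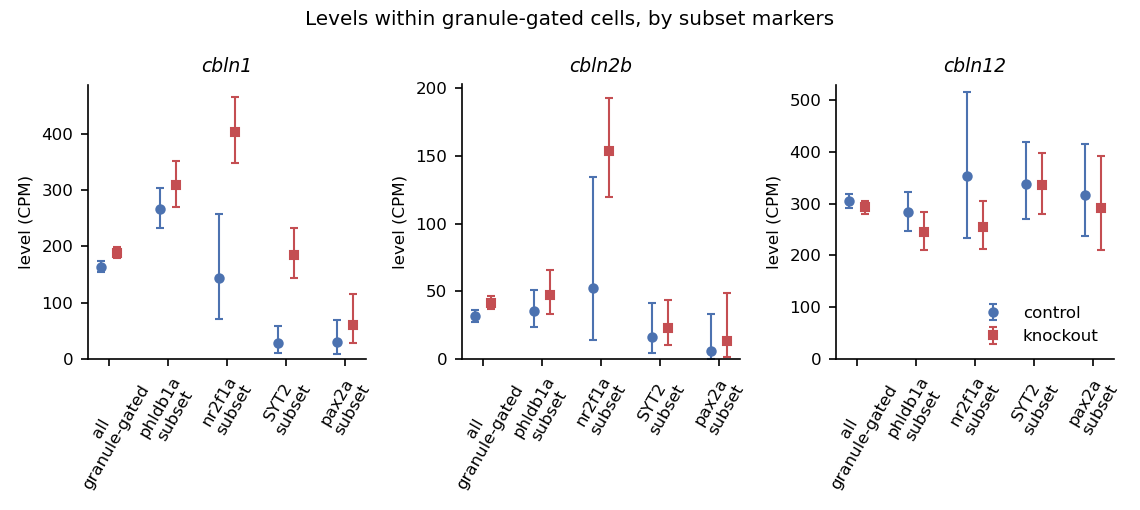
Levels of cbln1, cbln2b and cbln12 (vertical axes, CPM of summed UMIs, each from 0) in all granule-gated cells and in 4 subsets of them; circles are the control and squares the knockout library, with exact 95% Poisson intervals. The cbln1 level runs from 28.5 to 403 CPM among the subsets, while cbln12 keeps between 245 and 354 CPM.

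Activity genes such as egr1 and fosab, which are induced by neuronal firing and by dissociation, gave no common pattern. Granule-like cells with at least 4 of 9 such genes had cbln1 at 164 CPM (140 to 192) in the control and 155 CPM (139 to 173) in the knockout. Those with 0 had 180 CPM (164 to 198) and 227 CPM (207 to 249). The intervals overlapped in the control and not in the knockout. The summed activity genes stood at 1936 CPM in control and 4216 CPM in knockout granule-like cells, and their part in the differences between libraries was not tested. For cbln12 the levels were 321 and 304 CPM in control cells, against 286 and 284 CPM in knockout cells, with overlapping intervals.

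Other genes that differed between detecting and other cells were ranked within a class by the smaller of the log2 differences in the 2 libraries; this ranking was chosen after values were seen. Among granule-like cells, those with cbln1 had more adcyap1b, which encodes the neuropeptide PACAP, at 73.6 against 18.2 CPM in the control and 139 against 16.3 CPM in the knockout. They also had more of the potassium channel interacting protein gene kcnip3b, at 225 against 61.8 and 392 against 81.6 CPM, and of the transcription factor genes bhlhe23 and otx2b. They had less of the engrailed gene en2a, at 16.1 against 111 and 15.4 against 76.7 CPM, and of pax2a. Among the genes that were higher, the first-ranked was gsg1l, at 228 against 33.9 CPM in the control and 40.5 against 9.71 CPM in the knockout, so some cells of the granule-like class carried a marker of the gsg1l/lmx1al set. For cells with cbln12 the first-ranked gene among those lower was adcyap1b, at 10.3 against 65.7 CPM and 22.9 against 98.8 CPM.

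Granule-like cells with cbln2b, 138 in the control and 176 in the knockout, differed from the others in the following genes. The heparan sulfate sulfotransferase gene hs3st4 stood at 743 against 76.8 CPM in the control and 224 against 28.4 CPM in the knockout. The netrin receptor gene unc5a stood at 1859 against 254 CPM and 1042 against 131 CPM, and the neuroligin gene nlgn1 at 348 against 54.3 CPM and 344 against 59.2 CPM. Without granule-like cells holding a small-set marker, granule-like cbln2b lay further below the gsg1l/lmx1al set. The log2 difference was 4.30 against 2.96 in the control and 2.92 against 2.24 in the knockout. Cells with a small-set marker thus held part of the granule-like cbln2b, and their part in these genes was not tested. In the gsg1l/lmx1al set, 383 control and 129 knockout cells had a cbln1 UMI, and 104 and 23 had none. Cells with cbln1 had more of the calcium-binding protein gene calb1, at 427 against 29.0 CPM in the control and 138 CPM against 0 in the knockout. They also had more of the metabotropic glutamate receptor gene grm2b, at 520 against 108 CPM and 200 against 21.7 CPM. The 0 and the 21.7 CPM rest on only 23 knockout cells. In the galn set, 134 control and 35 knockout cells had a cbln2a UMI and only 26 and 14 had none, and the depth of these groups was not matched. Cells with cbln2a had less of the transcription factor gene nfixb, at 111 against 594 CPM and 159 against 887 CPM, and of the calcium sensor gene vsnl1a, at 111 against 549 CPM and 211 against 1242 CPM. These genes differed in the same direction in both libraries, which the ranking required.

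Across the classes, the genes most like each member were found by Pearson correlation of log2(CPM + 1) over 14 points, 7 classes with at least 20 cells in each of the 2 libraries. Radial-glia-like cells were among these classes, and GABAergic-like cells, with 18 in the knockout, were not. The points share libraries, and several classes share granule markers, so the values describe and carry no test. Among 7750 genes, cdk15 (r = 0.96), the transcription factor gene mef2ca (r = 0.95) and zic2a (r = 0.95), itself a gating marker, were most like cbln1. The potassium channel gene kcnh7 (r = 0.95), jpt1a (r = 0.95) and cdk15 (r = 0.94) were most like cbln2b, and cbln1 and cbln2b were alike at r = 0.94. For cbln2a these were nck2a (r = 0.92), lmo4b (r = 0.90) and the neuroglobin gene ngb (r = 0.90). For cbln12 they were the potassium channel gene kcnc3a (r = 0.97), the synaptotagmin gene syt2a (r = 0.97) and zgc:92107 (r = 0.97). The pair with the most opposed profiles over these points was cbln1 and cbln4 (r = -0.84). This value leaves out GABAergic-like cells, which carried cbln4. It also rests on low counts, with at most 2 cbln4 UMIs per library in the gsg1l/lmx1al, galn, uts1/otofa and radial-glia-like classes.

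Comparing genotypes over all cells, cbln2a and cbln2b were lower in the knockout library by more than 1.5-fold, and the other 3 members were within that fold when all cells were counted. This makes 2 of 5 members lower and 0 higher, where 7.11% of the 13120 genes with at least 100 UMIs were lower and 5.79% higher by that fold. The level of cbln2a was 56.2 CPM (52.3 to 60.3) in the control and 22.9 CPM (20.2 to 25.9) in the knockout, a log2 ratio of -1.29 (-1.50 to -1.09). For cbln2b it was 89.4 CPM (84.4 to 94.5) and 54.9 CPM (50.7 to 59.4), a log2 ratio of -0.70 (-0.84 to -0.56). The level of cbln1 was 278 CPM (270 to 287) and 233 CPM (224 to 242), a log2 ratio of -0.26 (-0.33 to -0.19). For cbln12 the values were 241 and 239 CPM, with a log2 ratio of -0.01 (-0.09 to 0.06), and for cbln4 8.51 and 7.58 CPM, with a log2 ratio of -0.17 (-0.59 to 0.25). The cbln4 ratio was 0.81 (0.05 to 1.58), past the fold and with the opposite sign, without the 5% of cells with the most UMIs, and 0.41 as a mean of CPM per cell.

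The makeup of the libraries differed alongside these totals. The gsg1l/lmx1al set was 11.9% of control and 4.7% of knockout cells, the galn set 3.9% and 1.5%, and immature granule-like cells 13.1% and 6.5%. Granule-like cells were 59.5% and 75.9%, and habenula-like cells 0.6% and 2.0%. Whether these shares reflect the genotype, the fish or the dissociation and sort cannot be told apart with 1 library each. Each library was then weighted to the pooled makeup of 8 classes, those with at least 20 cells in each library. Cells that passed no gate counted as 1 of the 8. GABAergic-like cells, with 18 in the knockout, were left out, although they held 41.9% and 15.3% of all cbln4 UMIs. The log2 ratio became -0.49 for cbln2a, -0.18 for cbln2b, -0.07 for cbln12, -0.36 for cbln4 and 0.11 for cbln1, the last with its sign turned. After this weighting no member differed by more than 1.5-fold.

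**Figure D4:**
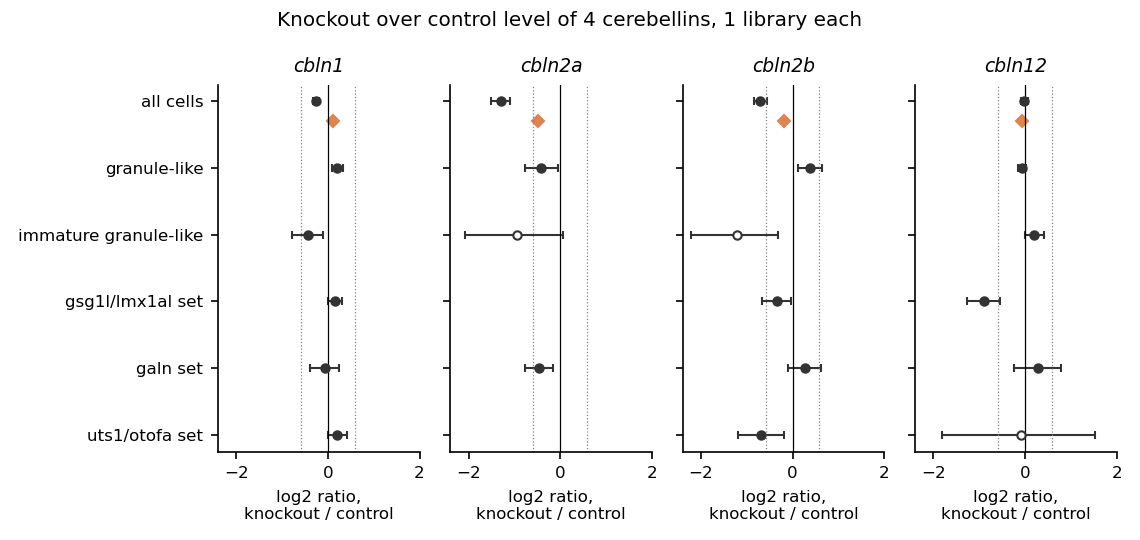
Log2 ratio of knockout to control level (horizontal axes) for 4 cerebellins over all cells and in 5 classes, 1 library each, with exact 95% intervals for counting error; open circles rest on fewer than 100 UMIs, the orange diamonds give all cells weighted to the pooled class makeup, and dotted lines mark 1.5-fold. For cbln2a the ratio over all cells (-1.29) lies beyond those in granule-like cells (-0.42) and in the galn set (-0.46).

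Within granule-like cells, 0 of the 4 members with at least 100 UMIs differed by more than 1.5-fold, where 5.74% of 10764 genes were lower and 4.39% higher. The log2 ratio was 0.21 (0.09 to 0.32) for cbln1, 0.38 (0.12 to 0.64) for cbln2b, -0.42 (-0.78 to -0.05) for cbln2a and -0.06 (-0.15 to 0.03) for cbln12. Granule-like cells with any UMI of the markers of the small sets were left out in a further count, chosen after seeing the data. The remaining 1603 and 1719 cells gave 1.04 for cbln2b, past the fold, and kept 0.23 for cbln1 and -0.10 for cbln12. With gates that needed 1 more marker, cells that failed a small set's gate or the immature gate could return to the granule-like class. The ratios then turned to -0.30 for cbln1 and -0.51 for cbln2b. With such cells left unassigned, a version written after those values were seen, they were 0.16 and 0.36, and as a mean of CPM per cell they were -0.02 and 0.03. The direction of both ratios therefore depended on the gate, and that of cbln1 also on the weighting of cells. Without the 5% of cells with the most UMIs, the cbln2b ratio was 0.20 (-0.09 to 0.49). The nr2f1a subset, 21 control and 84 knockout cells, held 4 and 72 cbln2b UMIs and 11 and 189 cbln1 UMIs. All granule-like cells held 209 and 311 cbln2b UMIs and 1074 and 1416 cbln1 UMIs. The part of this subset in both ratios was not tested. The marker gsg1l was itself counted at 91.1 CPM in control and 19.4 CPM in knockout granule-like cells. For cbln2a the granule-like ratio was -0.37 (-1.09 to 0.35) without cells holding a small-set marker. With failed cells left unassigned it was -0.36 (-0.73 to 0.004), and with them returned -0.51. It was -0.17 with free RNA subtracted and -0.53 as a mean of CPM per cell. Without the 5% of cells with the most UMIs it was -0.84.

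In the gsg1l/lmx1al set, cbln12 was the 1 of 3 members with enough UMIs that was lower by more than the fold, where 7.65% of genes were lower and 4.61% higher. Its UMIs numbered 402 in control cells and 78 in knockout cells, a log2 ratio of -0.90 (-1.27 to -0.54), and it was found in 50.7% (46.2 to 55.2) and 37.5% (29.8 to 45.7) of cells. In the same cells cbln1 gave 0.16 (0.01 to 0.30) and cbln2b -0.34 (-0.66 to -0.03). The granule marker gabra6b stood at 95.2 and 105 CPM in this set, and the summed granule markers at 8664 and 8653 CPM. In the uts1/otofa set, 1 of 2 members, cbln2b, was lower by the fold at -0.68 (-1.20 to -0.18), where 6.61% of genes were lower and 4.68% higher, and cbln1 gave 0.21 (-0.01 to 0.42). In the galn set, 0 of 4 members passed the fold, where 5.85% were lower and 3.87% higher. There cbln2a gave -0.46 (-0.77 to -0.17), cbln1 -0.07 (-0.39 to 0.25), cbln2b 0.26 (-0.10 to 0.62) and cbln12 0.29 (-0.24 to 0.79). In immature granule-like cells, 0 of 2 passed it, where 7.54% were lower and 4.5% higher, with cbln1 at -0.44 (-0.78 to -0.12) and cbln12 at 0.20 (0.00 to 0.41). There 1 knockout cell held 34 of the 98 cbln1 UMIs, and 1 control cell held 21 of 347. The cbln1 interval may therefore understate the error, and the ratio without these cells was not computed. GABAergic-like and habenula-like cells held too few UMIs of any member for this count.

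Genes for the cerebellins' binding partners were measured in the same cells. The list reported has 34 features, from neurexins, the GluD1-type receptors, the DCC family, C1q-like relatives, receptors of C1q-like proteins and the other cerebellins, and it was drawn up with earlier results of these data known. Of the 17 with at least 100 UMIs, 0 were higher and 4 were lower in the knockout by 1.5-fold, where 5.79% of all genes were higher and 7.11% lower, with a median log2 ratio of -0.15 against -0.03 over all genes. In granule-like cells 0 of 13 were higher and 0 lower, where 4.39% and 5.74% of genes were, with a median of -0.09 against -0.03. In the gsg1l/lmx1al set 3 of 10 were lower (4.61% of genes higher, 7.65% lower), namely grid1b at a log2 ratio of -1.22, nrxn2a at -1.06 and neo1b at -0.78, with a median of -0.40 against -0.02. Immature granule-like cells had 2 of 11 lower (4.5% higher, 7.54% lower), nrxn3b at -1.78 and adgrb2 at -0.68. Habenula-like cells, 25 and 65 in number, had 2 of 9 higher, grid1b at 1.26 and adgrb1a at 0.90, and 3 lower, nrxn3b at -1.08, nrxn3a at -0.76 and nrxn1a at -0.64, where 13.7% of genes were higher and 11.5% lower. In the 60 and 18 GABAergic-like cells 1 of 11 was higher, adgrb1a at 0.81, where 10% were higher and 12.3% lower. In the galn set 0 of 9 passed the fold, where 3.87% of genes were higher and 5.85% lower. In the uts1/otofa set 0 of 6 did, where 4.68% were higher and 6.61% lower.

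The genes grid1a and grid1b encode GluD1-type receptors, whose mouse counterpart binds cerebellins, and they differed by class. In the galn set grid1a stood at 1453 and 1219 CPM, and in granule-like cells at 562 and 392 CPM. The gsg1l/lmx1al set had grid1a at 64.4 and 49.9 CPM. The highest grid1b level was in habenula-like cells, with control at 5596 CPM and knockout at 13367 CPM, while the uts1/otofa set had 148 and 45.3 CPM. Thus grid1a was highest in the set with the most cbln2a, and grid1b in 1 of the 2 classes with the most cbln4, whose cbln4 intervals overlapped. The log2 ratio over all cells was -0.41 for grid1a and 0.47 for grid1b, and within granule-like cells it was -0.52 and -0.36.

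**Figure D5:**
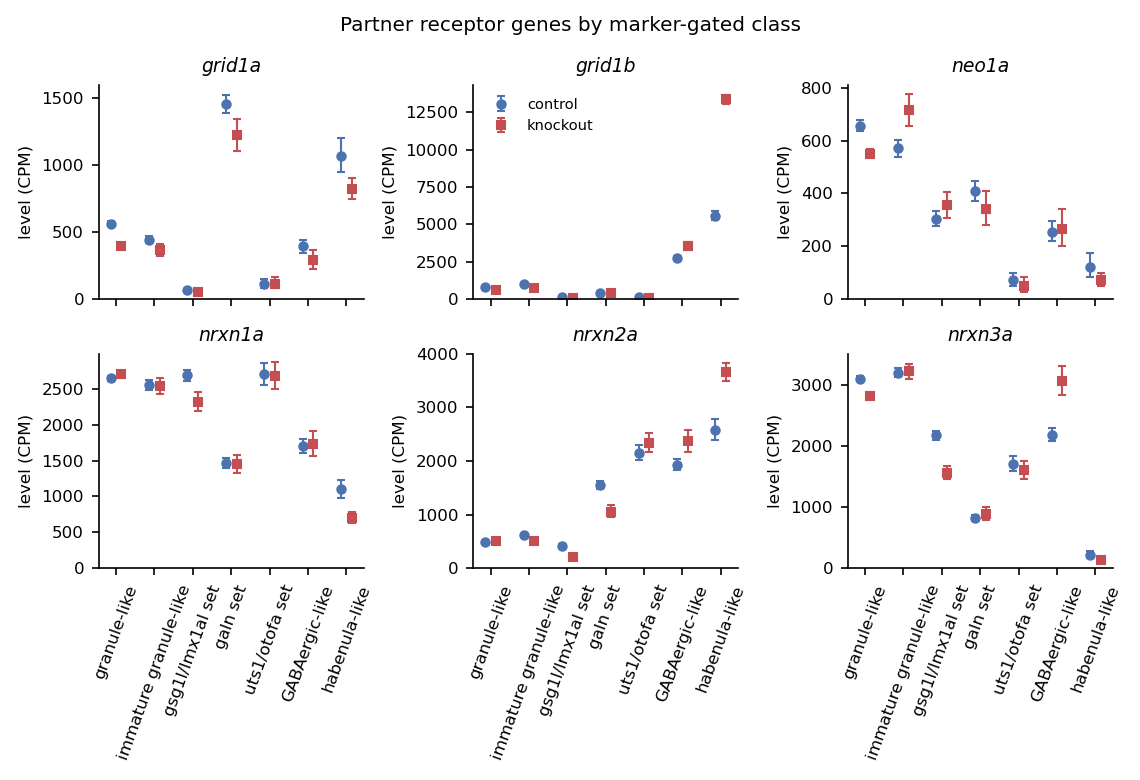
Levels of the receptor genes grid1a and grid1b, the neogenin gene neo1a and the neurexin genes nrxn1a, nrxn2a and nrxn3a (vertical axes, CPM of summed UMIs, each from 0) in 7 classes; circles are the control and squares the knockout library, with exact 95% Poisson intervals. The galn set has the highest grid1a level (1453 and 1219 CPM) and the habenula-like cells the highest grid1b level (5596 and 13367 CPM).

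Neurexin genes, the presynaptic receptors, were within the fold over all cells, with nrxn1a at 2441 and 2435 CPM, nrxn3a at 2603 and 2458 CPM, nrxn2a at 830 and 783 CPM and nrxn2b at 152 and 137 CPM. By class, nrxn3a was lowest in habenula-like cells at 217 and 128 CPM, and nrxn2a was highest there at 2585 and 3652 CPM. Of the DCC family, neo1a stood at 514 and 484 CPM, the counted 1 of 2 neo1b features at 41.1 and 27.1 CPM (log2 ratio -0.60) and dcc at 14.0 and 9.27 CPM (log2 ratio -0.59). GABAergic-like cells had dcc at 82.7 and 110 CPM, against 7.47 and 9.69 CPM in habenula-like cells, the other class with cbln4.

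Among C1q-like relatives, 2 features named c1ql3b were counted. One (ENSDARG00000028521) stood at 9.60 and 4.37 CPM, and at 82.7 and 8.79 CPM in GABAergic-like cells. The other (ENSDARG00000036483) stood at 13.7 and 6.87 CPM, at 106 and 94.1 CPM in the uts1/otofa set and at 54.7 and 39.2 CPM in the gsg1l/lmx1al set, the 2 sets with the highest cbln1 levels. The adhesion GPCR genes, placed in the list as the family of receptors of C1q-like proteins, were within the fold over all cells. The levels were 328 and 286 CPM for adgrb3, 208 and 253 CPM for adgrb1a, 68.5 and 88.4 CPM for adgrb2 and 35.5 and 45.4 CPM for adgrb1b.

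The 12 remaining cerebellin features were at or near 0. The most counted were cbln13, at 23 and 11 UMIs, and cbln7, at 16 and 12 UMIs, over all cells. No UMI was counted for cbln6, cbln10, cbln14 or cbln17. All 5 members matched a RefSeq gene of assembly GRCz12tu by symbol, where none has another member as its nearest neighbour, and chd8 and trim110 flank cbln12.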

How the data were processed

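The deposited values were UMI counts per gene and barcode from 2 libraries (Chromium 3 prime v3 kit, per the labels' protocols). Cell Ranger 7.1.0, Seurat and build GRCz11 are named in the submitters' processing notes with no role. Cells were filtered as described and hold 13754829 control and 11215916 knockout UMIs. The granule gate needed at least 4 distinct markers, and the immature gate also at least 3 of its own, with no share of UMIs required. Every other class needed at least 3 distinct markers (2 for the gsg1l/lmx1al, galn and uts1/otofa sets) that held at least 0.1% of a cell's UMIs. No doublet caller was run. Cells passing more than 1 gate, the granule gates aside, were left out of classes. Cells passing a granule gate and 1 other gate stayed in the other class, and remaining doublets are unknown. A gene was counted past the fold at 1.5-fold with at least 100 UMIs over both libraries. Intervals are exact 95% Poisson, Clopper-Pearson or conditional binomial intervals, and understate the error where a handful of cells carry a gene. A count of 0 was given the limit of 3 counts. UMI levels are not scaled by length, so members were not ranked against each other. Python 3.11.15, numpy 2.4.6, scipy 1.17.1 and pandas 2.3.3 were used. The ratios were also run on simulated Poisson counts. These hold no spread between cells or fish, so the simulation cannot show whether the intervals cover that spread. Members and lists were chosen with earlier results of these data known, and gate thresholds were set after seeing the data. Named genes were the 5 members, the 4 most counted partners per role, partners past the fold, and the 3 genes most like each member. Sequences, and 3 features of the partner list, are not reported here.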

Additional observations from a re-analysis of the deposited data

Results flagged for a closer look

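For 3 members the log2 ratio of knockout to control took opposite signs in different classes, with intervals for counting error on either side of 0. For cbln1 it was 0.21 in granule-like cells and 0.16 in the gsg1l/lmx1al set, and -0.44 in immature granule-like cells. This last ratio rests on 98 knockout UMIs, 34 of them in 1 cell. For cbln2b it was 0.38 in granule-like cells, -0.34 in the gsg1l/lmx1al set and -0.68 in the uts1/otofa set. For cbln12 it was 0.20 in immature granule-like cells and -0.90 in the gsg1l/lmx1al set. The difference between classes was not tested, since each class has 1 library per genotype.

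Barcodes under 100 UMIs, which were used in no comparison of levels, also held cerebellin UMIs. In the control these were 1020 for cbln1, 237 for cbln2a, 360 for cbln2b, 29 for cbln4 and 648 for cbln12. In the knockout they were 939, 111, 238, 46 and 690 in the same order.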

How the results depend on the processing

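Of 167 recomputed values, 4 turned the sign of a ratio whose interval lay on one side of 0, 50 others moved beyond the limits of the reported value (its interval for counting error or, for the partner list, 0.1 for the median and 1.5 times for a count) and 113 did not. Ratios over all cells whose intervals include 0 also changed sign, that of cbln4 to 0.81 without the 5% of cells with the most UMIs and to 0.41 as a mean of CPM per cell, and that of cbln12 to 0.04 at 2000 UMIs and 1000 genes. The ratio of cbln1 turned to 0.11 at the pooled makeup of the 8 classes used for weighting, where cbln2a gave -0.49 and cbln2b -0.18. In granule-like cells the cbln1 ratio turned to -0.021 as a mean of CPM per cell. With 1 more marker per gate, as planned, cbln1 turned to -0.30 and cbln2b to -0.51. Cells failing the gates of the small sets or the immature gate could then join the granule-like class (3081 and 2616 cells), and immature granule-like cells numbered 177 and 53. The part of each group in the turn was not tested. That setting also gave log2 differences between classes of 0.72 for cbln2b, 4.89 for cbln4 and 0.45 for cbln12 in the control. The version that left such cells unassigned was written after those values were seen and gave 1.93 for cbln2b and 0.53 for cbln12. Under both, 35.7% of 14 control gsg1l/lmx1al cells had cbln1 and cbln12, and the uts1/otofa set, with 2 markers, gave no value.

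Without the 5% of cells with the most UMIs, ratios over all cells were -0.35 for cbln1 and -1.51 for cbln2a, and -0.84 for cbln2a in granule-like cells. Class differences were then 3.0 and 2.83 for cbln1, 4.86 and 5.11 for cbln2a and 2.61 for cbln2b in the knockout, and 23.2% of control cells had at least 2 members. With free RNA subtracted, the granule-like cbln2b ratio was 0.66, and control class differences were 2.77 for cbln1, 4.90 for cbln2a, 3.39 for cbln2b and 11.3 for cbln4. The cbln4 value divides by a granule-like level near 0, which was 0.763 CPM from 5 UMIs before subtraction. It is not a measure of the fold, and the knockout gave no value. As means of CPM per cell, ratios were -0.42 for cbln1 over all cells and 0.032 for cbln2b in granule-like cells, and class differences 2.86 and 2.87 for cbln1, 4.99 and 4.92 for cbln2a and 2.79 for cbln2b in the knockout. Without granule-like cells holding a small-set marker, chosen after seeing the data, the cbln2b ratio was 1.04 and class differences 3.07 and 3.04 for cbln1, 5.68 and 5.59 for cbln2a and 4.30 and 2.92 for cbln2b.

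The share with at least 2 members was 32.6% and 25.7% at 2000 UMIs and 1000 genes, with 46.9% of control gsg1l/lmx1al cells holding cbln1 and cbln12, and 23.5% and 18.9% at 500 UMIs and 300 genes. Thinned, it was 6.55% and 4.89%, cbln1 among cbln2b cells 41.6% and 38.6%, and cbln1 with cbln12 in gsg1l/lmx1al cells 11.5% and 8.55%. No paired analysis was possible because each genotype has 1 library, and for the same reason no replicate could be left out. Depth limits cbln4 most, with 117 and 85 UMIs.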
